A study of Rattus norvegicus with 6 samples.

Results

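The 100 most abundant lines of a rat hippocampal long noncoding RNA (lncRNA) table were examined in 2 RNA-seq libraries, 1 labelled as treated with benzo[a]pyrene (B[a]P) and 1 labelled as control. The lines were chosen by their level: symbols of mitochondrial tRNAs (29 lines together with 7 named RNAs: Miat, Snhg4, Snhg11, Gas5, H19, Bc1 and Rmrp) were set aside, and the 100 lines with the highest sum over both libraries were taken from the 16084 left of 16113. The levels are therefore a description. The choice used the sum and not the difference between the libraries, and 1 library per group allows no test of that difference.

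The hippocampus came from Sprague-Dawley rats with a labelled age of 7 weeks. B[a]P, a combustion product that activates the aryl hydrocarbon receptor, was given in corn oil by daily gavage at 2.0 mg/kg. The control received corn oil by the same route, and gavage lasted 7 weeks, the same figure as the labelled age. Total RNA was extracted from frozen tissue. The series also holds 1 miRNA-seq and 1 bisulfite library per group. The labels speak of a rat in each group and give no number of animals.

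A lncRNA is a transcript that is not translated into a protein. Some act in the nucleus on chromatin and splicing, some bind miRNAs or proteins in the cytoplasm, and others are non-coding transcript models of genes that also make a protein. Meg3, an imprinted RNA made from the maternal chromosome, and Oip5-as1, known as Cyrano and carrying a conserved site for miR-7, are abundant examples in brain. The RNA of the signal recognition particle, ribosomal RNA and telomerase RNA are structural RNAs that do their work inside protein complexes.

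The 100 lines carried 77 symbols. RefSeq (assembly GRCr8) matched 63 of them, 51 by symbol, 8 by gene ID and 4 by an older name. It classed 46 symbols as protein-coding, 8 as lncRNA, 3 as pseudogene and 1 as transcribed pseudogene. A further 2 were ribosomal RNA, and signal recognition particle RNA, small nuclear RNA and telomerase RNA had 1 each. The other 14 were not matched. By lines, 59 of the 100 belonged to protein-coding genes and 18 to lncRNA genes, 11 of which were Meg3, so a table named for lncRNAs held mostly lines of coding loci at its top. The table does not say which transcript a line stands for.

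The promoters of 3 of the 8 lncRNA genes are shown as RefSeq gives them in GRCr8, from 250 bases before to 50 after the start of the gene. Meg3 is shown because all its lines were higher with B[a]P, LOC102550180 because it was the lowest of the 8 by ratio, and Oip5-as1 because it is a known RNA that lay near the middle. Capitals mark, on either strand, TATAAA as a TATA box, CCAAT as the box bound by NF-Y, TGACGTCA as the cyclic AMP response element and GCGTG as the core of the aryl hydrocarbon receptor element.
Meg3, chr6:134273806-134274105, plus strand: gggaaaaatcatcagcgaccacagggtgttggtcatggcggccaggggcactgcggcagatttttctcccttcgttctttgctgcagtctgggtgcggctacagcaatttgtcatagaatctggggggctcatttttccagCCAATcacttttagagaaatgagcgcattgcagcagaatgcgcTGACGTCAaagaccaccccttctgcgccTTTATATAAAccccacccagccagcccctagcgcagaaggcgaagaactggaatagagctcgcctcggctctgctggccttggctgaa
Oip5-as1, chr3:127031872-127032171, plus strand: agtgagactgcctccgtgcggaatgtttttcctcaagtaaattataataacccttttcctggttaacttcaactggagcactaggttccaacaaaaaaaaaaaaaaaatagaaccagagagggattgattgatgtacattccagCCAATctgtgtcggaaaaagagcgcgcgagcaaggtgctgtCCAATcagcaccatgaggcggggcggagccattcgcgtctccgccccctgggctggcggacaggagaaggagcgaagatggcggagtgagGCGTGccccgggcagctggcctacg
LOC102550180, chr15:31884908-31885207, plus strand: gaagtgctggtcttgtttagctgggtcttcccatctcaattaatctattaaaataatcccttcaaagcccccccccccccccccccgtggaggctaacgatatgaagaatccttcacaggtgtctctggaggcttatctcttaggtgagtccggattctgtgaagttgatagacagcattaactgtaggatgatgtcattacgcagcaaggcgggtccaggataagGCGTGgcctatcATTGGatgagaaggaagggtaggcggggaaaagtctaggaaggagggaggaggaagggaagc

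Meg3 held TGACGTCA once, CCAAT once and TATAAA on both strands as overlapping matches, and no GCGTG. Oip5-as1 held CCAAT at 2 places and GCGTG once, and LOC102550180 held CCAAT (on the opposite strand) and GCGTG once each. Promoters of the table were found for 48 matched symbols. Of these, 8.33% (4 of 48, Meg3 among them) held TGACGTCA, against 1.91% of all 27457 promoters. GCGTG was held by 45.8% against 31.1%, CCAAT by 47.9% against 37.7% and TATAAA by 18.8% against 14.3%. The full set was not matched for level, and enrichment was not tested. A match is a run of letters and not a measured binding site.

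The table was dominated by 1 line. LOC102723236, which RefSeq names Rn7sl1, is the 7SL RNA of the signal recognition particle, the complex that brings ribosomes to the endoplasmic reticulum. It was at 508352 FPKM (fragments per kilobase of transcript, scaled to library size) with B[a]P and 613320 FPKM in the control. This was 94.6% and 95.3% of the summed value of all lines. With that line and the symbols set aside left out, the other 99 lines held 46.7% (B[a]P) and 46.4% (control) of what remained. In second place, LOC102547101, which was not matched, was at 827 against 602 FPKM, the B[a]P value being first in this and later pairs. In 10 lines both libraries reached 100 FPKM, and in 89 neither did. The cut fell at a summed level of 25.3 FPKM, so it marks no gap: the lines just inside were Tardbp (26.1), Dcaf11 (26.0), LOC102556685 (26.0), Terc (25.7) and Prrt2 (25.3), and those just outside were LOC100360791 (24.7, at 9.997 FPKM with B[a]P and 14.7 FPKM in the control), LOC102549795 (24.6), Hnrnpdl (24.1 and 23.6) and Usp12 (24.0).

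Levels of the most abundant lines differed little between the libraries. Each library was divided by its median over lines above 0, which was 0.104 FPKM (B[a]P) and 0.0909 FPKM (control), so equal deposited values give a log2 ratio of -0.20. On this scale the log2 ratio of B[a]P to control over the 100 lines had a median of -0.13 and ran from -0.59 to 0.29. None of the 100 lines was at least 1.5-fold higher, against 2.59% of the 2007 lines that reached 0.5 FPKM in 1 library or both. At least 1.5-fold lower was 1 of the 100, against 3.89%. No line reached 2-fold, against 1.1% higher and 1.4% lower among the 2007. The median of the 2007 lines was -0.10. A low count past 1.5-fold was not particular to the 100 lines: the next 100 lines had a median of -0.13, with 2 lines at least 1.5-fold lower and 0 higher. Their range was wider, from -1.31 to 0.14, with 1 line at least 2-fold lower. When all 2007 lines were ranked by sum, the symbols set aside included, 1.67% of ranks 201 to 500 and 10.4% of ranks 1001 to 2007 were past 1.5-fold, so low lines spread most.

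**Figure D1:**
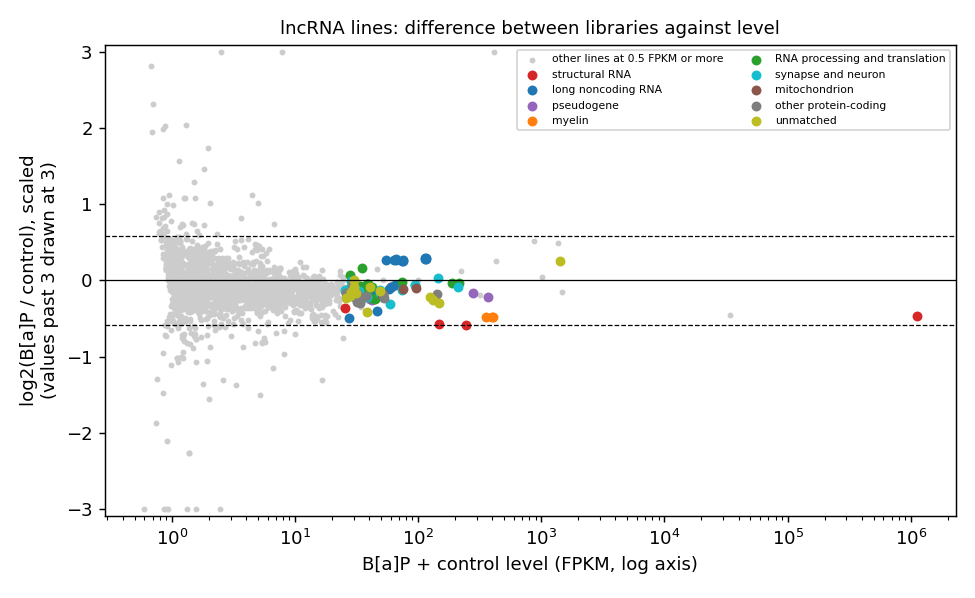
Scaled log2 ratio of B[a]P to control against the summed level of each lncRNA line (FPKM, log axis), 1 point per line, with dashed lines at 1.5-fold. The 100 lines, coloured by kind of gene, lie between -0.59 and 0.29, while lines of low level (grey) spread past both dashed lines.

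The sign of small ratios depended on the scaling. After scaling, 84 of the 100 lines lay below 0 and 16 above, against 66.7% of the 2007 lines below 0, whereas the deposited values of 70 were higher with B[a]P. As deposited, the median log2 ratio of the 2007 lines was 0.10. Centred on the median of the 2007 lines, 62 lay below 0 and 38 above. Among the 2007 lines, the number past 1.5-fold was 52 higher and 78 lower after scaling, and 125 higher and 41 lower as deposited. A line near -0.10 therefore lay with the bulk of the table. Highest were the 11 Meg3 lines and LOC102547101, from 0.26 to 0.29. Lowest, from -0.59 to -0.40, were Rn28s, Rn45s, the 7SL line, the 3 Mobp lines, LOC103691688 and the lncRNA genes LOC102550180 and LOC102548575.

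The line past 1.5-fold was a structural RNA. Rn28s, the RNA of the large ribosomal subunit, was at 106 FPKM (B[a]P) and 138 FPKM (control), 1.505-fold lower after scaling. It did not reach 1.5-fold as deposited (log2 -0.39) or when centred on the median of the 2007 lines (-0.49). Rn45s, the ribosomal RNA precursor, was at 64.6 against 84.0 FPKM, 1.49-fold lower, so it lay just inside the threshold. Because the RNA of Rn28s is part of that precursor, the lines can share reads, and their nearly equal ratios are not separate observations.

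The 7SL line was 1.39-fold lower after scaling (log2 -0.47). Terc, the RNA template of telomerase, was at 12.1 against 13.6 FPKM, 1.28-fold lower. LOC252890, which RefSeq classes as a small nuclear RNA, was at 31.3 against 29.0 FPKM, with a log2 ratio of -0.09 that lay with the bulk of the table. The 5 lines had a median of -0.47, and 4 of them were lower with B[a]P as deposited.

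From a list of 12 structural RNAs, 8 were found in the table, with log2 ratios from -0.59 to -0.18, where equal deposited values give -0.20. As deposited, Rn5s was slightly higher with B[a]P and the other 7 were lower, against 30 of the 100 lines lower. Those not among the 100 were Rn18s of the small ribosomal subunit (2.47 against 2.73 FPKM), Rn5-8s (0.312 against 0.343 FPKM), Rn5s (0.225 against 0.223 FPKM) and Rmrp, which was set aside and which RefSeq lists under Rpph1. The 7SL RNA has many near-identical copies in mammalian genomes, so its level depends on how shared reads were counted.

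Meg3, listed as RGD1566401, had all 11 of its lines among the 100. With B[a]P they lay between 32.0 and 67.9 FPKM (median 43.5) and in the control between 23.1 and 48.4 FPKM (median 31.6). Each line was higher with B[a]P, by 1.20-fold to 1.22-fold after scaling, and the log2 ratios ran from 0.26 to 0.29. The lines differed among themselves in level by 2.12-fold with B[a]P, more than between the libraries. Lines of 1 gene share reads and do not act as replicates, so this is 1 observation. With the Meg3 and Mobp lines left out, 5 of 86 lines lay above 0 after scaling, against 9 of the next 100 lines and 669 of the 2007 lines. Under each scaling tried, the 11 lines were above 0, from 0.25 to 0.28 with the upper quartile and from 0.46 to 0.49 as deposited.

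Of the coding genes in the mRNA table, the nearest on each side of Meg3 in the imprinted region did not share this direction. Dlk1, which encodes a Notch-related membrane protein, was at 0.5003 against 0.614 FPKM in the mRNA table, and Dio3, which encodes the deiodinase that inactivates thyroid hormone, at 0.705 against 0.798 FPKM. Their scaled log2 ratios were -0.48 and -0.36, at levels where lncRNA lines spread widely, against 0.34 for Meg3 in the same table.

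The miRNA gene Mir770 lies within the span of Meg3, and its mature products give another readout of the locus. Sequences are from RefSeq (GRCr8) with the seed, bases 2 to 8, in capitals.
miR-770-5p: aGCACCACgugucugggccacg
miR-770-3p: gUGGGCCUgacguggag

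miR-770-5p was at 19.4 RPM (reads normalised for depth) with B[a]P and 17.7 RPM in the control, and miR-770-3p at 20.5 against 17.1 RPM. Divided by each library's median, which was 33.5 and 26.3 RPM, the log2 ratios were -0.21 and -0.08. Both arms were thus higher as deposited and slightly lower once the shift of the whole miRNA table was removed. Of 332 miRNAs at 10 RPM or more, 19 were past 1.5-fold on this scale, and neither arm was among them.

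The other 7 lncRNA genes had 1 line each, with a median of -0.11 after scaling, close to the -0.10 of all 2007 lines. As deposited, 5 of the 7 were higher with B[a]P. LOC102550180 was at 12.3 FPKM with B[a]P and 15.2 FPKM in the control, 1.41-fold lower. It lies between Mmp14, which encodes a membrane-bound matrix metalloproteinase, and Lrp10, which encodes a lipoprotein receptor relative. In the mRNA table LOC102550180 was at log2 -0.41, Mmp14 at 1.78 against 4.53 FPKM (-1.53) and Lrp10 at 5.68 against 6.97 FPKM (-0.48). The lncRNA and both neighbours were thus lower with B[a]P, and a shared cause was not tested.

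LOC102548575, which overlaps Fkbp1a, the gene of a peptidyl-prolyl isomerase that binds rapamycin, was at 21.6 against 24.8 FPKM, 1.32-fold lower. In the mRNA table it was at -0.32, and Fkbp1a at -0.12 (286 against 274 FPKM). The lncRNA and the gene it overlaps therefore differed in ratio by a small amount that has no replicate error.

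The remaining 5 lay with the bulk of the table. Oip5-as1 (listed as LOC100910827) was at 31.4 against 29.0 FPKM, with a log2 ratio of -0.09. LOC102554171, which overlaps the proton pump subunit gene Atp6v1b2, was at 34.0 against 30.7 FPKM (-0.05). LOC102556679, which overlaps the kinesin gene Kif5c, was at 18.2 against 16.7 FPKM (-0.08). LOC100911177, next to Znfx1, was at 22.1 against 21.4 FPKM (-0.15). LOC100911992, next to the transcription factor gene Mef2d, was at 29.7 against 27.9 FPKM (-0.11). Overlap here is of whole gene spans. Reads from bases that an lncRNA shares with a coding gene may be hard to assign, and the sources used here do not say whether counting used strand.

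Both Oip5-as1 and LOC100911992 can be set beside miRNAs. Cyrano is known for triggering the decay of miR-7 through its conserved site, and LOC100911992 spans Mir9-1, a source of miR-9, which acts in neurogenesis. The miR-7 members share the seed GGAAGAC.
miR-7a-5p: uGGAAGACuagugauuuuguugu
miR-7b: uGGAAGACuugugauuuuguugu
miR-9a-5p: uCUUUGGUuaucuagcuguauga
miR-9a-3p: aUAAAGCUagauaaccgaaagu

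miR-7a-5p was at 21815 RPM (B[a]P) and 19355 RPM (control), and miR-7b at 2625 against 2512 RPM. Their scaled log2 ratios were -0.18 and -0.28. miR-9a-5p was at 95687 against 83263 RPM and miR-9a-3p at 3790.5 against 3009 RPM, with scaled ratios of -0.15 and -0.01. None passed 1.5-fold. miR-9a has other source genes, and miR-7a does too, so their levels do not report on 1 locus.

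Of 40 names of lncRNAs and snoRNA host genes listed from general knowledge, 10 were found in the table and 8 had a line at 0.5 FPKM or more. The list held Oip5-as1 and also its other name Cyrano, which was not found. Meg3 and Oip5-as1 were the 2 among the 100. The other 6 had log2 ratios from -0.24 to 0.18. Each ratio was the median over the lines of a symbol, some of which may lie below 0.5 FPKM. None of the 8 was past 1.5-fold in either direction, against 6.48% of the 2007 lines. Tug1, a nuclear lncRNA, was at 9.58 against 8.68 FPKM (-0.06), and Dancr at 0.698 against 0.612 FPKM (-0.01).

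Mobp, which encodes a myelin-associated protein of oligodendrocytes, had 3 lines in places 3, 4 and 6. With B[a]P they were at 182, 180 and 160 FPKM and in the control at 221, 219 and 195 FPKM. Each line was 1.40-fold lower after scaling. As with Meg3, the lines share reads and give 1 observation. The log2 ratios of the lines were all -0.48 or -0.49.

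Oligodendrocyte markers were also read in the mRNA table, where equal deposited values give -0.18. Mag was at 38.0 against 46.0 FPKM (-0.46), Mbp at 733 against 861 FPKM (-0.42), Mobp itself at 178 against 205 FPKM (-0.39) and Mog at 23.0 against 22.6 FPKM (-0.15). Mog was thus slightly higher with B[a]P as deposited, whereas Mag, Mbp and Mobp were lower. Bulk tissue cannot separate the number of oligodendrocytes, the myelin RNA per cell and the part of the tissue taken at dissection. Whether any of these differed between the libraries was not tested.

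**Figure D2:**
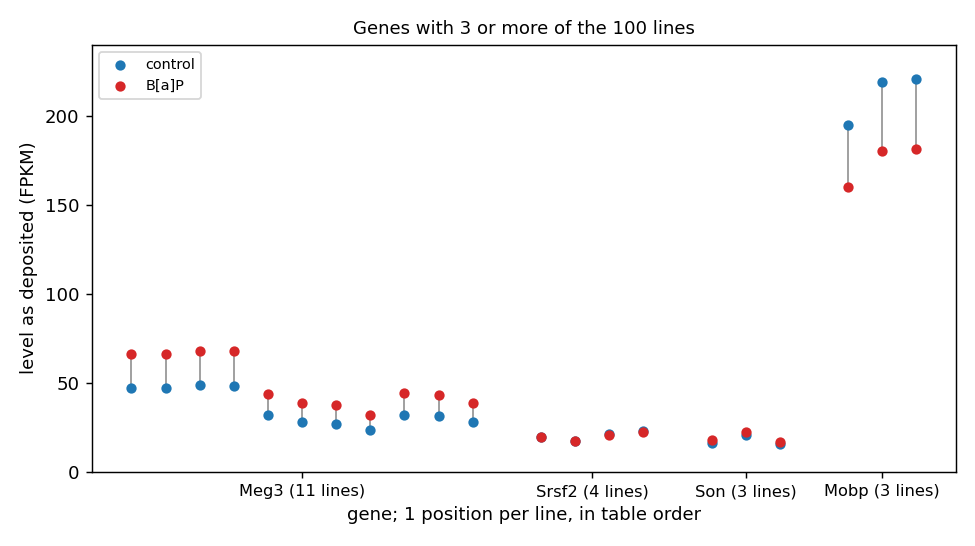
Level as deposited (FPKM) of every line of the genes with 3 or more of the 100 lines, B[a]P in red and control in blue, 1 position per line. All 11 Meg3 lines are higher and all 3 Mobp lines lower with B[a]P, while the points of Srsf2 and Son nearly coincide.

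RNA processing and translation genes made up 21 lines of 12 symbols, with a median of -0.09 and a range from -0.24 to 0.17. Splicing regulators are known for retained introns and non-coding transcripts that limit their own protein. Srsf2, an SR protein, had 4 lines at 16.9 to 22.1 FPKM (B[a]P) and 17.2 to 22.7 FPKM (control), with ratios from -0.24 to -0.20. Son, a protein of nuclear speckles, had 3 lines at 16.7 to 22.1 against 15.2 to 20.4 FPKM, from -0.09 to -0.07.

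Ddx39b, an RNA helicase of splicing and mRNA export, was the highest of the group at 19.6 against 15.2 FPKM, 1.12-fold higher. Bclaf1, a nuclear protein linked to splicing, followed at 15.2 against 12.6 FPKM (0.07). These were the only 2 of the group's 21 lines above 0 after scaling, against 669 of the 2007 lines.

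The translation helicase gene Eif4a2 had 2 lines, at 113 and 100.3 FPKM (B[a]P) and 100.5 and 89.2 FPKM (control), both at -0.03 or -0.04. Srsf5, another SR protein, was at 39.3 against 34.7 FPKM (-0.02), and Zfr, an RNA-binding zinc finger protein, at 20.6 against 18.6 FPKM (-0.05). Hnrnpa1, which binds introns and represses splice sites, had 2 lines at -0.12 each, and Hnrnpu, a nuclear matrix RNA-binding protein, lay at -0.12. Tardbp, which encodes TDP-43, had 2 lines at -0.12, Zc3h15 2 lines at -0.06 and -0.05, and the cold-induced gene Rbm3 was at 16.9 against 16.8 FPKM (-0.19).

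Synaptic and neuronal genes made up 16 lines of 15 symbols, with a median of -0.13 and a range from -0.31 to 0.03. Nsmf, which carries signals from NMDA receptors to the nucleus, was the most abundant at 111 against 102 FPKM (-0.09). Nnat, an imprinted membrane protein of developing neurons, was at 78.3 against 66.8 FPKM (0.03). It was the only 1 of the 16 lines above 0, against 669 of the 2007 lines. Vamp1, a vesicle SNARE, was lowest at 28.6 against 30.9 FPKM, 1.24-fold lower. Stx1a, its partner in the presynaptic membrane, was at 15.1 against 13.2 FPKM (-0.01).

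Dnajc5, which encodes the vesicle chaperone cysteine string protein, had 2 lines at 49.4 FPKM (B[a]P) and 44.6 FPKM (control), both at -0.05. Dlg4, which encodes the postsynaptic scaffold PSD-95, was at 25.5 against 24.1 FPKM (-0.12). Klc1, a kinesin light chain, lay at -0.13, the presynaptic protein Prrt2 at -0.13, the scaffold Lin7b at -0.14 and the kinase scaffold Mapk8ip2 at -0.16. Cyp46a1, the neuronal enzyme that hydroxylates cholesterol for export, was at 14.6 against 14.3 FPKM (-0.17). The others were Atcay and Taok2 at -0.22 each, the phosphatase subunit Ppp2r2b at -0.13 and Rab3gap1 (listed as RGD1306487) at -0.10.

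Mitochondrial genes made up 5 lines with ratios from -0.19 to -0.09, and all 5 were higher with B[a]P as deposited. The 5 were Ndufb1 of complex I (-0.18), the inner membrane translocase gene Timm29 (listed as RGD1309188, -0.19), Atp5mpl of the ATP synthase (LOC100912557, -0.11), Atp5mkl1 (LOC103693330, -0.09) and Uqcrbl1 (LOC685596, -0.17).

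A further 14 lines of 13 coding symbols lay from -0.29 to -0.06. Gstm1, a glutathione transferase, was lowest at 16.4 against 17.5 FPKM, 1.22-fold lower, with the co-chaperone gene Dnajb2 beside it at 15.5 against 16.5 FPKM (-0.29). Atp2a2, the calcium pump of the endoplasmic reticulum, was the most abundant at 71.7 against 70.5 FPKM (-0.18). The small GTPase gene Arf3 was at 26.2 against 25.9 FPKM (-0.19), Ptov1 at 26.1 against 26.6 FPKM (-0.23) and the kinase gene Csnk1g2 at 16.3 against 16.7 FPKM (-0.24). The predicted symbols among them were Zcchc18 (listed as LOC102555659, -0.21) and Fndc4 (LOC100910821, -0.22). Rabep1, an endosome protein, lay at -0.19, Ngrn at -0.16, the ubiquitin ligase gene Rnf11 at -0.06, Dnajc27 at -0.06 and both lines of Dcaf11 at -0.16.

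The 5 pseudogene lines had a median of -0.22, and 3 of them were lower with B[a]P as deposited. Rpl37a-ps1 was at 182 against 184 FPKM (-0.22), and Calm-ps2 at 141 against 138 FPKM (-0.17). Pseudogenes resemble their parent genes closely, so their reads could be shared. In the mRNA table, Calm-ps2 in the control library was at 1.93 times the level of the calmodulin gene Calm2, Hmgb1-ps4 at 2.14 times that of the chromatin protein gene Hmgb1 and Hmox2-ps1 at 1.88 times that of the heme oxygenase gene Hmox2. Hspa8-ps22 (LOC688655) was at 0.0803 times the level of the chaperone gene Hspa8. The log2 ratio between libraries in that table was -0.08 for Calm-ps2 and 0.06 for Calm2, -0.16 and -0.05 for the Hmgb1 pair, -0.04 and -0.06 for the Hmox2 pair and -0.18 and -0.12 for the Hspa8 pair.

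The 13 unmatched lines outside the pseudogenes had a median of -0.17. LOC102547101 was 1.19-fold higher (log2 0.26), LOC102551783 lay at 0.01 and the other 11 below 0, against 66.7% of the 2007 lines below 0. LOC103691688 was lowest at 17.8 against 20.7 FPKM, 1.33-fold lower, and LOC103692423, the next most abundant of them, was at 71.4 against 76.6 FPKM, 1.23-fold lower. LOC103691943 was at 64.3 against 66.8 FPKM (-0.26) and LOC103692483 at 61.7 against 62.4 FPKM (-0.22).

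**Figure D3:**
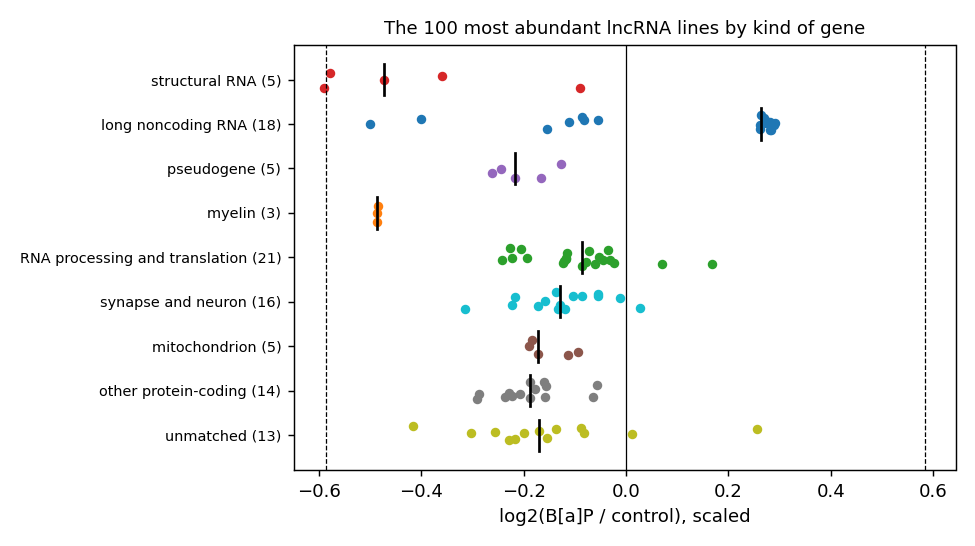
Scaled log2 ratio of B[a]P to control for each of the 100 lines by kind of gene, with the number of lines in brackets, the median as a bar and dashed lines at 1.5-fold. Structural RNA and myelin lines have the lowest medians, -0.47 and -0.49, and the cluster at 0.26 to 0.29 is Meg3.

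Several lines of 1 gene agreed closely, but such lines share reads and do not act as replicates. The 10 symbols with more than 1 line held 33 of the 100 lines, and the log2 ratios of a symbol's lines spanned at most 0.04, in Srsf2. The span was 0.03 for Meg3 and 0.01 for Son. With 1 line per symbol, the median of the 77 was -0.16, and 71 lay below 0, against 66.7% of the 2007 lines.

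The same symbols are in the mRNA table, which carries another scaling. Over 5098 symbols on 1 line, the lncRNA value was 0.474 (B[a]P) and 0.497 (control) times the mRNA value at the median. After division by these factors, 47 of the 100 lines lay within 1% of the mRNA table in both libraries, and among the 67 lines of symbols on a single line 43 did. Another 11 lines exceeded the mRNA value by over 1.5 times in the control library. Of these, 4 were Meg3 lines, at 2.03 to 2.09 times, and 3 were Mobp lines, at 1.91 to 2.17 times. The rest were Csnk1g2 (2.11 times), a line of Son (1.55 times), Srsf5 (6.82 times) and Ndufb1 (390.5 times). Ndufb1 was at 26.2 and 25.9 FPKM in the lncRNA table and at 0.126 and 0.134 FPKM in the mRNA table, so its place among the 100 lines rests on the lncRNA table alone.

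**Figure D4:**
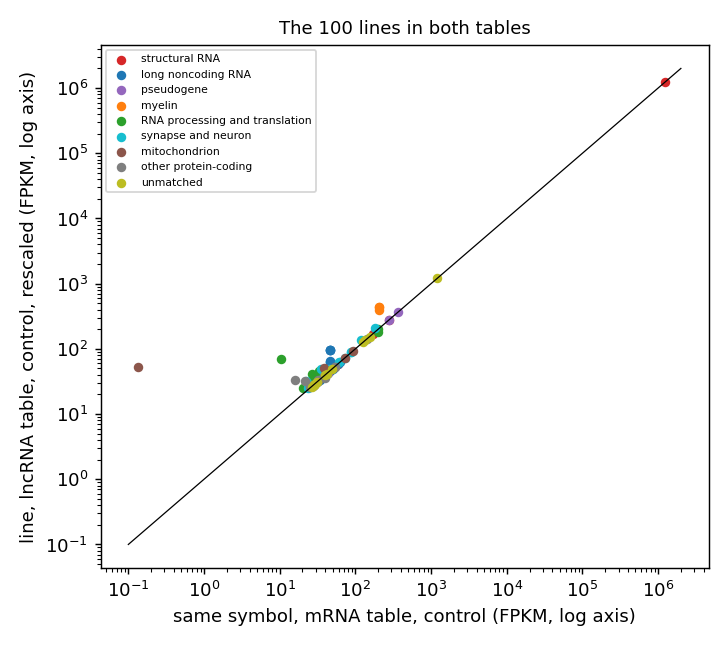
Level of each of the 100 lines in the control library, divided by 0.497, against the level of the same symbol in the mRNA table (both FPKM, log axes), with the line of equality. Ndufb1 lies far above the line at the left, and Srsf5 is the next farthest.

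Markers of the labelled tissue were present in the mRNA table. All 5 neuronal and all 5 dentate and hippocampal markers were present, at 8.15 FPKM or more in the control library, and neither list had a member past 1.5-fold. Choroid plexus markers were past 1.5-fold in 8 of 8, each lower with B[a]P and none at 0, against 4.23% lower by that fold among the 15065 symbols of the mRNA table that reached 0.5 FPKM (1.89% higher). Ttr, the transthyretin gene, held most of their summed level, at 60.5 FPKM (B[a]P) and 3300.2 FPKM (control). The other 7 summed to 4.54 and 108 FPKM, and 1 of the 8 did not reach 0.5 FPKM. Of 5 ependymal markers, 3 were lower by at least 1.5-fold. Astrocyte (median 0.16), microglial (0.01), endothelial (-0.30) and blood (-0.26) lists had 1 member in all past 1.5-fold, an endothelial one. The part of these cells in the ratios of the 100 lines was not tested.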

How the data were processed

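Per the labels' protocols, RNA was extracted from frozen rat hippocampus and sequenced, with 1 RNA-seq and 1 miRNA-seq library per group. Tools and builds named in the submitters' processing notes are bcl2fastq, rn6 and rn5, and which table each served is not stated there. The sources used here do not give an aligner, a counting tool or an annotation. The deposited lncRNA and mRNA tables hold 1 value per line and library, taken as FPKM from the values because no label gives the unit. Depth is therefore unknown, and no counting interval was computed. The deposited miRNA tables were taken as RPM in the same way. The bisulfite tables were not used, since their positions could not be placed on these genes.

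The lncRNA tables of both libraries list the same symbols in the same order and were joined by line. Values were divided by the library's median over lines above 0, and the log2 ratio was computed without a pseudocount, as both values were above 0. The mRNA and miRNA tables were scaled in the same way. Lines that reached 0.5 FPKM in 1 library or both formed the background. The size rules were 1.5-fold and 2-fold. No p-value was computed, since each group has 1 library, and every ratio compares 2 libraries and not the conditions. The calculation was tested on simulated data with known fold changes and no added noise, which checks the arithmetic only. It used Python 3.11.15, numpy 2.4.6 and pandas 2.3.3.

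Genes were named by this rule: the 20 highest lines, lines past 1.5-fold, the 5 lines on each side of the cut, symbols other than predicted ones, and symbols with 3 or more lines. Predicted genes with a RefSeq match, and the extremes of the unmatched lines, were added after their values were seen. The members and lists were chosen with earlier results of these data known, and kinds of gene were assigned after the members were known. Neighbours are the nearest coding genes in the gene order of GRCr8 whose symbol is in the mRNA table, and coding genes absent from it were skipped. A marker gene and a neighbouring gene are not reported here.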

Additional observations from a re-analysis of the deposited data

How the results depend on the processing

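Each result rests on 1 library per group, and no alternative supplies a replicate check. No paired analysis was possible because each group has 1 library. The count of lines at least 1.5-fold higher was 0 under each alternative tried. The count at least 1.5-fold lower, 1 by the reported choices (Rn28s), was 0 with values as deposited, with centring on the median of all lines, with a pseudocount of 1, with values of the mRNA tables and at 2-fold. It was 2 with upper quartile scaling (Rn45s was added), 2 when lines were ranked in the control library alone and 3 with 200 lines. It stayed at 1 with a pseudocount of 0.1, with 1 line per symbol, with 50 lines and with ranking in the B[a]P library alone. The rankings in 1 library shared 99 (control) and 98 (B[a]P) lines with the 100. The median log2 ratio of -0.13 moved to 0.071 as deposited, and 54 single lines then changed sign without passing 1.5-fold. It lay between -0.16 and -0.03 under the other alternatives; 3 of these, namely 1 line per symbol, the mRNA tables and leaving out Meg3 and Mobp, were chosen after seeing the data. Over all lines, 52 higher and 78 lower became 1272 and 1584 with every line above 0 in both libraries, and 2 and 5 at 5 FPKM or more. The 100 lines held 95.4% (B[a]P) and 95.9% (control) of the table's sum, and without the highest line 15.6% and 13.95%, an alternative also added after seeing the data.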
